A study of Mus musculus with 2 samples.

Results

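Rab GTPases are small switch proteins that mark the membranes of a cell and recruit the motors, tethers and fusion machinery that move vesicles between compartments. Each is turned on by a guanine nucleotide exchange factor (GEF), turned off by a GTPase-activating protein (GAP), and in its active form binds effector proteins. In dendritic cells, which take up antigen, cut it in endosomes and show it to T cells on MHC molecules, Rab proteins steer phagosome maturation, the recycling of MHC molecules and the secretion of cytokines. The genes described here were chosen by name: every row of the deposited files whose Entrez Gene number has a mouse symbol made of Rab, a number and at most 1 letter and 1 more digit. This took 56 of the 18090 gene IDs, 54 of them with reads in both libraries and 2 (Rab25 and Rab26) with reads in the mature library alone. Of the 59 symbols of the reference that fit the pattern, the remaining 3, Rab17, Rab40b and Rab42, are not analysed here.

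The study holds 1 RNA-seq library of mature and 1 of immature dendritic cells, both grown from bone marrow of C57BL/6 mice for 6 days with the growth factors GM-CSF (10 ng/ml) and IL-4 (1 ng/ml). The mature cells are taken to be the sample that then received lipopolysaccharide (LPS, a bacterial cell wall component) at 100 ng/ml for 24 h in the same factors. Both were sorted by their surface CD86 and I-Ab (an MHC class II molecule), with gates not given in the sources used here. The labels do not say how many mice were used or whether the immature cells had the same extra day in culture.

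The mature library held 8.07 M and the immature library 7.56 M uniquely placed reads, and the middle gene of each list had 82 reads. Levels are in RPKM, reads per kilobase of gene model and per 1 M reads counted to genes, so that 3 reads on a gene of 1 kb stood at 0.372 RPKM in the mature and 0.397 RPKM in the immature library. With 1 library per state there is no replicate error, no test was made, and each difference is one between these 2 libraries. Ratios are of mature to immature RPKM, followed by the exact 95% interval from the reads, which covers counting error only. All 10 dendritic cell markers examined reached 1 RPKM in a library. Mature cells exceeded the immature level 2-fold or more for 5 of them. These included Ccr7 with a ratio of 18.4 (16.8 to 20.2), Cd83 with 8.83 (7.88 to 9.92) and Cd86 with 5.82 (5.29 to 6.4). Itgax went the other way, 2.75-fold lower (2.66 to 2.84). The other 4 lay within 2-fold, among them the class II gene H2-Ab1 at 978 RPKM in the mature and 1256 RPKM in the immature library. All 10 neutrophil and precursor markers and all 10 proliferation markers were at least 2-fold lower in the mature library, as were 6 of 10 macrophage and monocyte markers. In a bulk library, fewer cells of a type and less RNA per cell cannot be told apart.

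Of the 56 Rab genes, 44 reached 1 RPKM in at least 1 library and were compared, 3 of them through 1 library alone. The other 12 stayed under 1 RPKM in both, with at most 16 reads. A gene was counted as different when log2 of (mature RPKM + 1) over (immature RPKM + 1) was at least 1 in size, that is 2-fold on a scale that makes differences of scarce genes look smaller. By this measure Rab10, Rab12 and Rab13 were higher in mature cells, 3 of 44 genes, against 9.05% of all 11547 genes compared. Another 3 were lower (Rab3d, Rab19 and Rab27a), against 11.3% of all genes. The remaining 38 of 44 (86.4%) lay within 2-fold, against 79.6% of all genes. Each count of 3 is 6.82% of the 44, close to the share of all genes.

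The median log2 fold over the 44 genes was 0.05, beside 0.03 over all genes compared, and over all 56 genes it was 0.11. The log2 folds ran from -1.10 to 1.397. Reads of the family made up 0.473% of the mature library (Wilson 95% interval 0.468 to 0.477) and 0.437% of the immature library (0.432 to 0.442). Per length, the summed level was 2219.9 RPKM in mature and 2334 RPKM in immature cells. That is a ratio of 0.951, beside 0.942 for the summed RPKM of all genes. The share of reads was thus slightly higher in the mature library. The summed RPKM was slightly lower there, as was that of all genes, while single genes differed in both directions. Rab7 alone gave 574 RPKM of the sum in mature and 760.4 RPKM in immature cells.

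**Figure D1:**
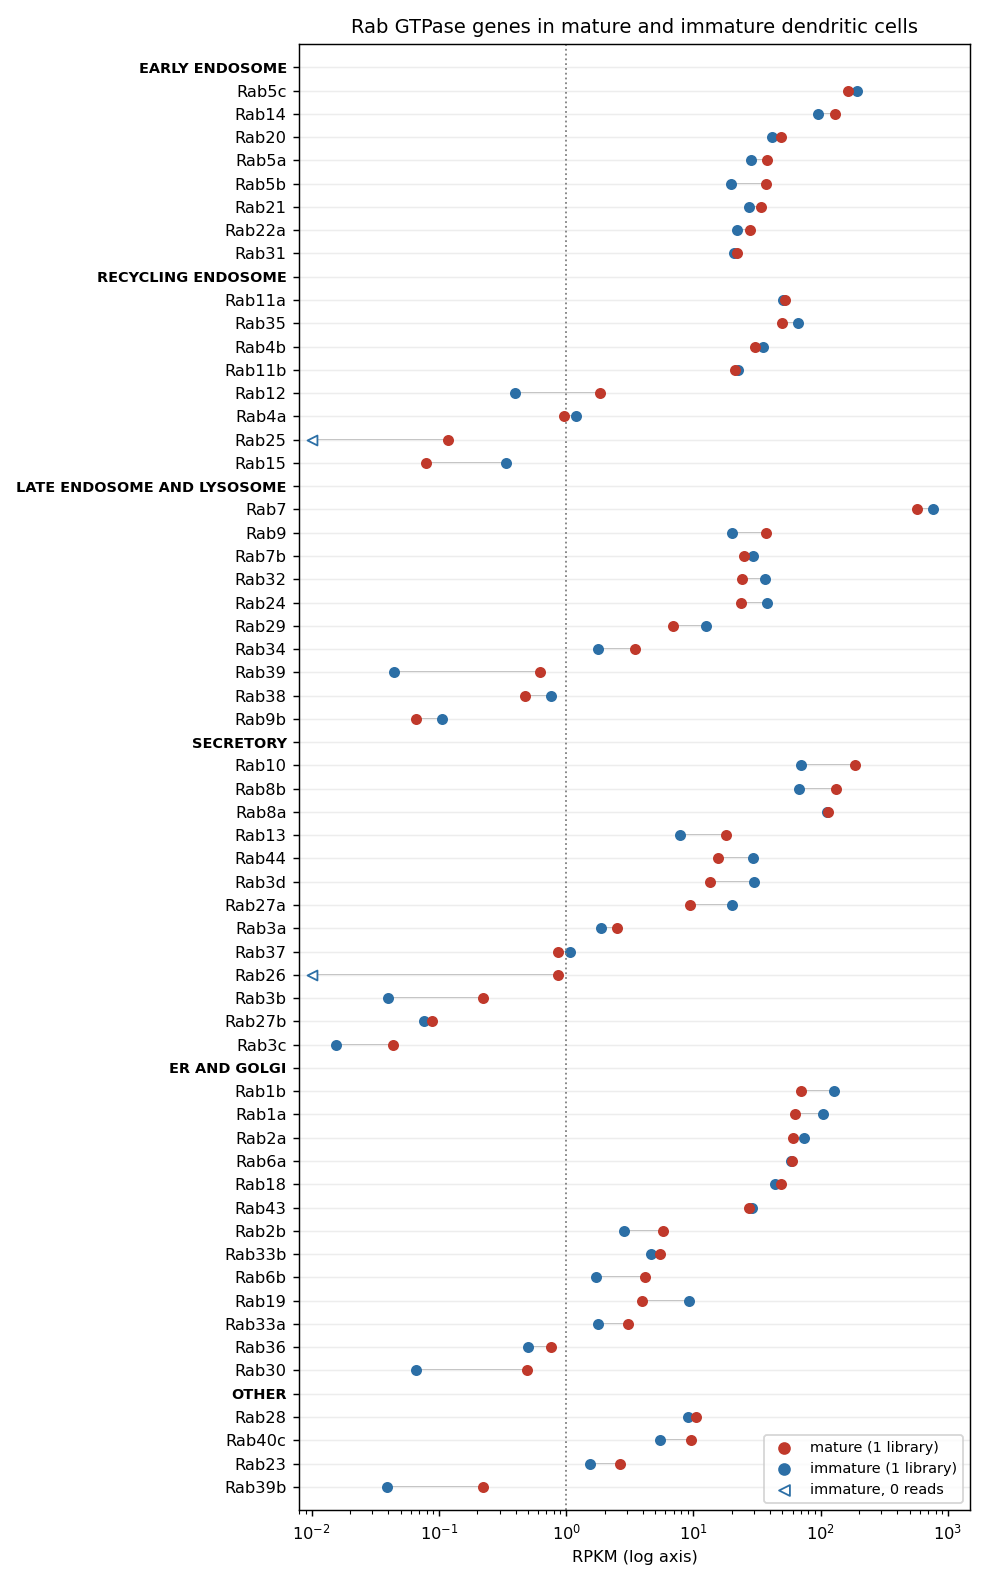
Level of each of the 56 Rab genes in RPKM (log axis) in the mature (red) and immature (blue) library, by compartment, with a dotted line at 1 RPKM and open triangles for 0 immature reads. Rab7 is the most abundant in both libraries, and of the 12 that reach 50 RPKM in either one, Rab10 and Rab8b lie furthest apart.

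Rab proteins of the secretory route carry vesicles from the Golgi to the plasma membrane or dock ready-made granules there. Of 13 secretory genes, 9 were compared, with 2 at least 2-fold higher and 2 lower (22.2% each, beside 9.05% and 11.3% of all genes). On the higher side were 5 of the 9, beside 51.6% of all genes, and the median log2 fold was 0.03. The group summed to 492 RPKM in mature and 338 RPKM in immature cells. Rab10 (Entrez Gene 19325), which directs vesicles to the plasma membrane and in mouse macrophages is known to carry the LPS receptor Tlr4 to the surface, had 5266 reads in the mature and 1857 in the immature library. Its level was 185 RPKM in mature and 69.5 RPKM in immature cells, 2.66-fold higher (2.52 to 2.8). Rab10 ranked second of the 56 genes in the mature library and had rank 8 in the immature one. It was also the single compared member whose counting interval lay wholly above 2-fold, as did 7.23% of all genes, and 0 members had an interval wholly beyond 2-fold lower, against 8.67% of all genes. It held 8.32% of the summed Rab RPKM in the mature and 2.98% in the immature library.

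Rab8b (Entrez Gene 235442), another Rab of the route to the plasma membrane, had 5080 reads in the mature and 2403 in the immature library. At 132 RPKM in mature and 66.9 RPKM in immature cells it was 1.98-fold higher (1.89 to 2.08) and lay just short of the threshold, with a log2 fold of 0.98. The log2 fold of Rab8b was 0.79 once the trend of all genes with gene length was removed. Its paralog Rab8a differed little, with 114 RPKM in mature and 112 RPKM in immature cells, a ratio of 1.02 (0.959 to 1.09). Rab13 (Entrez Gene 68328), which serves the plasma membrane and cell junctions, was far less abundant, at 17.9 RPKM on 155 reads in mature and 7.9 RPKM on 64 reads in immature cells, 2.27-fold higher (1.69 to 3.09). These 4 genes of the plasma membrane route, set apart after the values were seen, summed to 449 RPKM in the mature and 256 RPKM in the immature library.

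The abundant Rab genes of secretory granules stood on the lower side. Rab3d (Entrez Gene 19340), a Rab of regulated secretion in non-neuronal cells, had 419 reads (13.4 RPKM) in mature and 877 reads (29.98 RPKM) in immature cells, 2.23-fold lower (1.99 to 2.52). Rab27a (Entrez Gene 11891), which docks secretory granules and lysosome-related organelles and is known in mouse dendritic cells to limit phagosome acidification, had 226 reads (9.42 RPKM) in mature and 455 reads (20.2 RPKM) in immature cells, 2.15-fold lower (1.83 to 2.53). Rab44, a large Rab of haematopoietic granules, lay within 2-fold at 15.5 RPKM in mature and 29.3 RPKM in immature cells, 1.89-fold lower (1.69 to 2.11).

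The rest of the granule group was scarce. Rab3a reached 2.49 RPKM in mature and 1.86 RPKM in immature cells, and Rab37 0.864 RPKM in mature and 1.08 RPKM in immature cells. Rab26 had 10 reads in the mature library and 0 in the immature one, a ratio whose exact interval starts at 2.1, but at 0.864 RPKM it was under the level compared. Rab3b, Rab3c and Rab27b had between 1 and 6 reads in either library. The 9 granule genes summed to 43.0 RPKM in mature and 82.6 RPKM in immature cells, a ratio of 0.520. The division of the secretory group by these roles was made after the values were seen.

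Most markers of granule-bearing cells were also lower in the mature library, as were all 10 proliferation markers. The 10 neutrophil and precursor markers summed to 855 RPKM in the mature and 6774 RPKM in the immature library, with none at 0 in either. Of 8 mast cell and basophil markers, Cma1, Fcer1a and Ms4a2 are not analysed here. The 5 others summed to 13.4 RPKM in mature and 23.9 RPKM in immature cells. Of these, 3 were at least 2-fold lower, while Kit and Gata2 had ratios of 1.26 (0.958 to 1.65) and 0.941 (0.78 to 1.14). The part of granule-bearing cells in the lower Rab3d, Rab27a and Rab44 values was not tested.

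**Figure D2:**
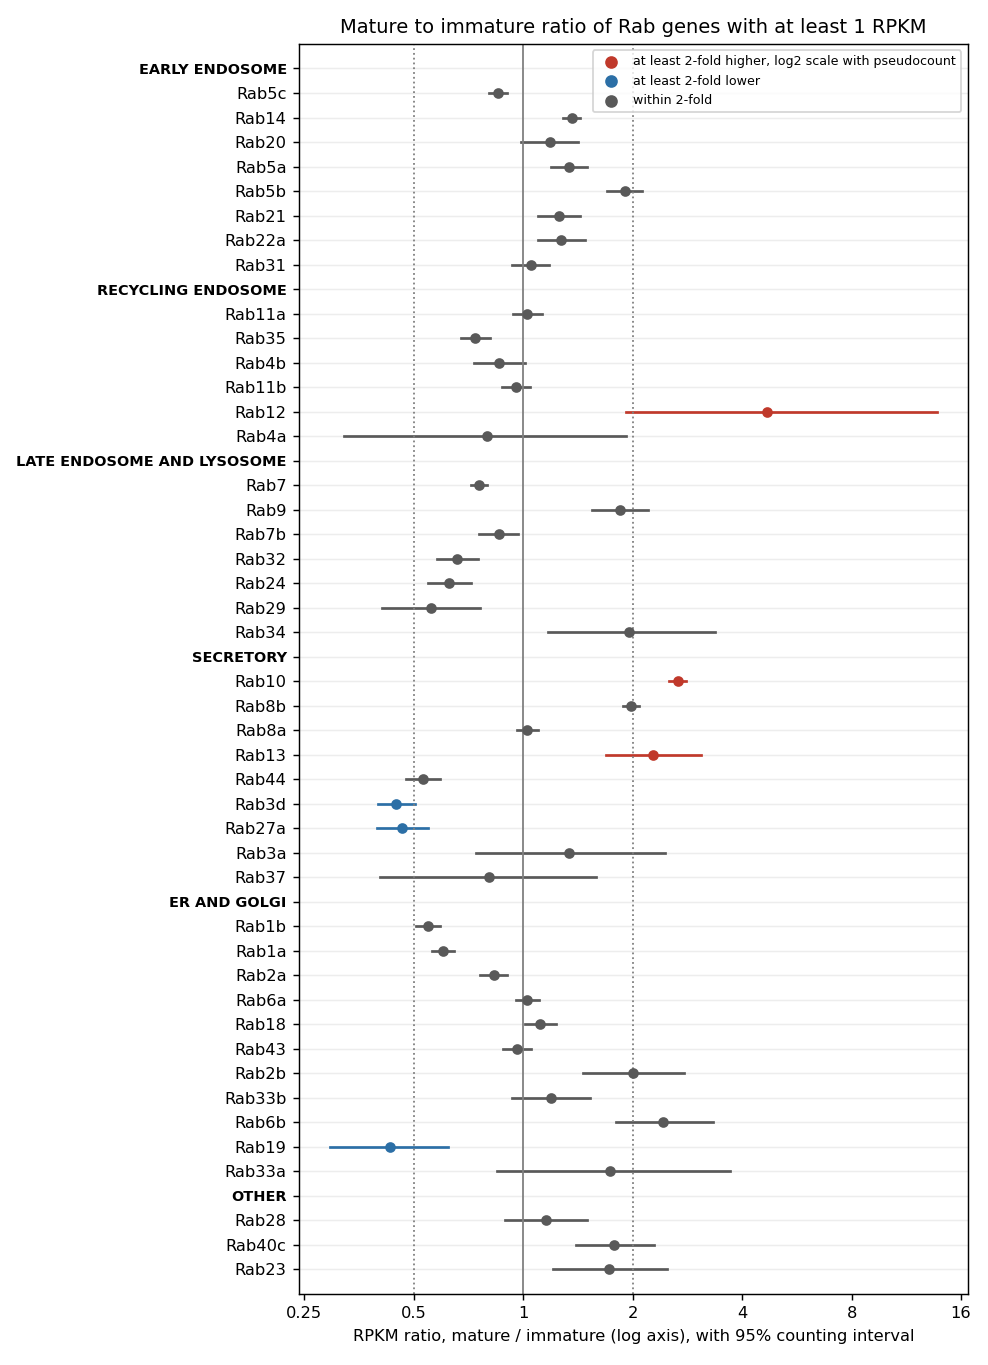
Ratio of mature to immature RPKM (log axis) of the 44 Rab genes compared, by compartment; bars are exact 95% counting intervals and dotted lines mark 2-fold. Rab10, Rab12 and Rab13 (red) are at least 2-fold higher and Rab3d, Rab19 and Rab27a (blue) at least 2-fold lower on the scale with a pseudocount of 1 RPKM.

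The promoters shown are those of the 5 Rab genes that differed at least 2-fold and whose reads covered over 50% of their length. Each line gives the 250 bases before the RefSeq start on assembly GRCm38.p6, 5′ to 3′ on the gene's strand. Rab13 and Rab27a have a further start in the table, and the most upstream one is shown. Capitals mark a match to any of 4 motifs searched on both strands: an NF-kB-like site (GGG, any 3 bases, TTCC), an interferon response element-like site (GAAA, any pair of bases, GAAA), an AP-1 site (TGACTCA) and the E-box CACGTG.
Rab10, chr12:3309970-3310219, minus strand: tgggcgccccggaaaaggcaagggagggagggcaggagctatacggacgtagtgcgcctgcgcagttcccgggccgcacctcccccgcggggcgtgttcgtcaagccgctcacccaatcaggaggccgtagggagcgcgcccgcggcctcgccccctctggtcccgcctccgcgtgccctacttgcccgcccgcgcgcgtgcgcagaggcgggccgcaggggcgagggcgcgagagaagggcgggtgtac
Rab13, chr3:90213465-90213714, plus strand: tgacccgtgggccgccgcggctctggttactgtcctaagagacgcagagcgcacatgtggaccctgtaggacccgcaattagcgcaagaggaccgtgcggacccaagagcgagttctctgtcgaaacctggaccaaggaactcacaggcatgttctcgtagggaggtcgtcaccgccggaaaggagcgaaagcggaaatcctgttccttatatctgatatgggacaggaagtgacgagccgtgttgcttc
Rab3d, chr9:21918184-21918433, minus strand: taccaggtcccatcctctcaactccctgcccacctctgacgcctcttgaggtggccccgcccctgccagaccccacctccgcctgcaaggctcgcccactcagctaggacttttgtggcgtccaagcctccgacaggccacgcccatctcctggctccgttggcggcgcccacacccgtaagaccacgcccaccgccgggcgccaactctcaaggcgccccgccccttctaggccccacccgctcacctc
Rab27a, chr9:73044560-73044809, plus strand: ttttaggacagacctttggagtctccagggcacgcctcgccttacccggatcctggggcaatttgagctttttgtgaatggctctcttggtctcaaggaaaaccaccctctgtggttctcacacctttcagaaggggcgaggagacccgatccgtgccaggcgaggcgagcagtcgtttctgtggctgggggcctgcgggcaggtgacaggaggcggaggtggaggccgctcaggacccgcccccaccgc
Rab19, chr6:39381103-39381352, plus strand: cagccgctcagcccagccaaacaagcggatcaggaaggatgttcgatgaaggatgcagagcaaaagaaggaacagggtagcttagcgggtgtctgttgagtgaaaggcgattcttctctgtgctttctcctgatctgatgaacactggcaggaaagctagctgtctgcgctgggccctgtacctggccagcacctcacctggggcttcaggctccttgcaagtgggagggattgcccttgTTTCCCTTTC

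One of these windows held a match: that of Rab19 reads TTTCCCTTTC, the interferon response element-like site on the other strand, starting 10 bases before the start. The second Rab27a start, not shown, had an E-box 246 bases before it. Over the 57 windows of the 45 Rab genes found in the table, the NF-kB-like site occurred in 4 (Rab9, Rab11a, Rab15 and Rab28), against 4.65% of all 32851 windows. The interferon response element-like site occurred in 1, against 2.98% of all windows, the AP-1 site in 2, against 4.46%, and the E-box in 5, against 6.02%. The G and C content was 74.8% in the Rab10 window, 69.2% in Rab3d and 55.2% in Rab19, beside a median of 60.8% over the Rab windows and 52.4% over all windows. A match is a string of letters and not a measured site, and no match says only that these letters are not in this window.

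Early endosomes receive cargo from the cell surface, and Rab5 proteins drive their fusion. All 8 early endosome genes reached 1 RPKM and all lay within 2-fold, with 7 of 8 on the higher side in the mature library, beside 51.6% of all genes. Their median log2 fold was 0.32, and their sum was 501 RPKM in mature and 447 RPKM in immature cells. With the gene length trend removed, 6 of 8 were on the higher side. The largest difference was that of Rab5b, at 37.2 RPKM in mature and 19.6 RPKM in immature cells, 1.9-fold higher (1.7 to 2.13). Rab5a stood at 38.0 RPKM in mature and 28.4 RPKM in immature cells, 1.34-fold higher (1.19 to 1.5).

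Rab5c was the most abundant early endosome gene and the one on the lower side, at 164 RPKM in mature and 193 RPKM in immature cells, 1.17-fold lower (1.11 to 1.25). The Rab5 paralogs together summed to nearly the same level, 239.6 RPKM in mature and 240.9 RPKM in immature cells. Within this sum Rab5c held 68.6% in mature and 80.1% in immature cells, and Rab5b held 15.5% in mature and 8.13% in immature cells.

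Rab14, which moves cargo between the trans-Golgi network and early endosomes and marks storage endosomes of dendritic cells that feed phagosomes, was at 129 RPKM in mature and 94.7 RPKM in immature cells, 1.36-fold higher (1.29 to 1.44). Rab22a, which sorts cargo into recycling tubules, and Rab21, which serves the endocytosis of integrins, had ratios of 1.27 (1.1 to 1.48) and 1.25 (1.09 to 1.43). For Rab20, of maturing phagosomes, and Rab31, of traffic between Golgi and endosomes, the counting intervals included 1, at ratios of 1.18 (0.989 to 1.41) and 1.05 (0.934 to 1.18).

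Recycling endosomes return receptors and MHC molecules to the surface. Of 8 recycling genes with reads, 6 were compared, with a median log2 fold of -0.12 (-0.02 with the gene length trend removed), and 1 of them, Rab12, was at least 2-fold apart. Rab11a, the main Rab of slow recycling and of the class I store used in cross-presentation, had 979 reads (52.0 RPKM) in mature and 893 reads (50.6 RPKM) in immature cells, a ratio of 1.03 (0.937 to 1.13). Rab11b had 21.2 RPKM in mature and 22.2 RPKM in immature cells, a ratio of 0.955 (0.875 to 1.04). The counting intervals of both slow recycling genes included 1, and the log2 fold of Rab11b, -0.06, was -0.30 with the gene length trend removed.

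Rab35, of fast recycling at the plasma membrane, was at 49.3 RPKM in mature and 66.7 RPKM in immature cells, 1.35-fold lower (1.24 to 1.48). Of the Rab4 paralogs, which serve recycling straight from early endosomes, Rab4b carried 97.0% of the level in mature and 96.7% in immature cells, at 30.5 RPKM in mature and 35.5 RPKM in immature cells. Rab4a had 11 reads in the mature and 13 in the immature library. Rab12 (Entrez Gene 19328), which passes receptors from recycling endosomes to lysosomes, had 30 reads (1.85 RPKM) in mature and 6 reads (0.395 RPKM) in immature cells, 4.68-fold higher (1.92 to 13.8). Its reads covered 9.55% of the gene model in mature and 9.8% in immature cells, so this value rests on a short stretch of the gene. The epithelial Rab25 had 1 read in the mature library and the neuronal Rab15 had 2 reads in the mature and 8 in the immature library.

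Late endosomes and lysosomes break down cargo, and Rab7 drives their fusion and transport. Of 10 genes of this group with reads, 7 were compared and all 7 lay within 2-fold. On the lower side were 5 of the 7, beside 5590 of all 11547 genes compared. The median log2 fold was -0.41, and -0.20 with the gene length trend removed. Rab7 (Entrez Gene 19349) was the most abundant Rab gene of both libraries, with 2890 reads in the mature and 3589 in the immature library. Its level was 574 RPKM in mature and 760.4 RPKM in immature cells, 1.33-fold lower (1.26 to 1.39). It held 25.8% of the summed Rab RPKM in mature and 32.6% in immature cells. Its gene model in the files, 624 bases, is the shortest of the family, and its level per length depends on that model. The log2 fold of Rab7 was -0.41, and -0.10 once the trend of all genes with gene length was removed.

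Further genes on the lower side belong to lysosome-related or autophagic membranes. Rab29, of the trans-Golgi network and stressed lysosomes, was at 6.95 RPKM in mature and 12.4 RPKM in immature cells, 1.79-fold lower (1.31 to 2.45). Rab24, of autophagic vesicles, was 1.6-fold lower (1.39 to 1.83), and Rab32, of lysosome-related organelles, 1.52-fold lower (1.33 to 1.73). Rab7b, which in mouse macrophages is known to send Tlr4 to degradation, was at 24.98 RPKM in mature and 29.2 RPKM in immature cells, 1.17-fold lower (1.04 to 1.32).

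On the higher side stood Rab9, which returns mannose 6-phosphate receptors from late endosomes to the Golgi, at 37.1 RPKM in mature and 20.1 RPKM in immature cells, 1.84-fold higher (1.55 to 2.2). Its log2 fold of 0.85 was 1.03 with the gene length trend removed. Rab34, which positions lysosomes, was scarce at 48 reads in mature and 23 in immature cells, with a ratio of 1.96 (1.17 to 3.37). Among those under 1 RPKM, Rab39, of late endosomes and phagosome acidification, had 15 reads in the mature and 1 in the immature library, a ratio of 14.1 with the wide interval of 2.16 to 592. Rab38 and Rab9b had 9 or fewer reads in either library.

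Rab proteins of the endoplasmic reticulum (ER) and Golgi move newly made proteins to the surface and into endosomes. Of 13 genes, 11 were compared and 10 lay within 2-fold. The genes of the ER to Golgi step both stood on the lower side in mature cells: Rab1b stood at 69.5 RPKM in mature and 127 RPKM in immature cells, 1.83-fold lower (1.69 to 1.98). Rab1a stood at 62.8 RPKM in mature and 104 RPKM in immature cells, 1.66-fold lower (1.55 to 1.78). Rab2a, of the step back from the Golgi, was 1.21-fold lower (1.11 to 1.31).

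The main Golgi Rab, Rab6a, had 59.5 RPKM in mature and 58.0 RPKM in immature cells, a ratio of 1.03 (0.954 to 1.1). Rab43, known in mouse dendritic cells for its part in cross-presentation, had 1020 reads (27.4 RPKM) in mature and 996 reads (28.6 RPKM) in immature cells, a ratio of 0.959 (0.878 to 1.05). Rab18, of lipid droplets, had a ratio of 1.11 (1.01 to 1.23). These Golgi and ER genes therefore differed by little beyond counting error.

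The gene at least 2-fold apart was Rab19 (Entrez Gene 19331), a Golgi Rab, with 44 reads (3.98 RPKM) in mature and 96 reads (9.26 RPKM) in immature cells, 2.33-fold lower (1.61 to 3.41). The scarce paralogs were on the other side. Rab6b, known mostly from neurons, had 158 reads in the mature and 61 in the immature library, 2.43-fold higher (1.79 to 3.32) in RPKM but within 2-fold after the pseudocount at a log2 fold of 0.93. Rab2b had 128 reads in mature and 60 in immature cells, 2.0-fold higher (1.46 to 2.76), at a log2 fold of 0.80. They held 6.5% and 8.62% of their paralog pairs in mature cells, and 2.85% and 3.76% in immature cells. The Golgi genes Rab33a, Rab33b, Rab30 and Rab36 reached at most 5.5 RPKM.

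Among genes of other roles, the SOCS-box Rab40c, which joins a ubiquitin ligase, was at 9.64 RPKM in mature and 5.42 RPKM in immature cells, a ratio of 1.78 (1.39 to 2.29). Rab23, of cilia and Hedgehog signalling, had a ratio of 1.72 (1.21 to 2.48), and Rab28, also of cilia, 1.15 (0.893 to 1.49). Rab39b had 6 reads in the mature and 1 in the immature library.

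**Figure D3:**
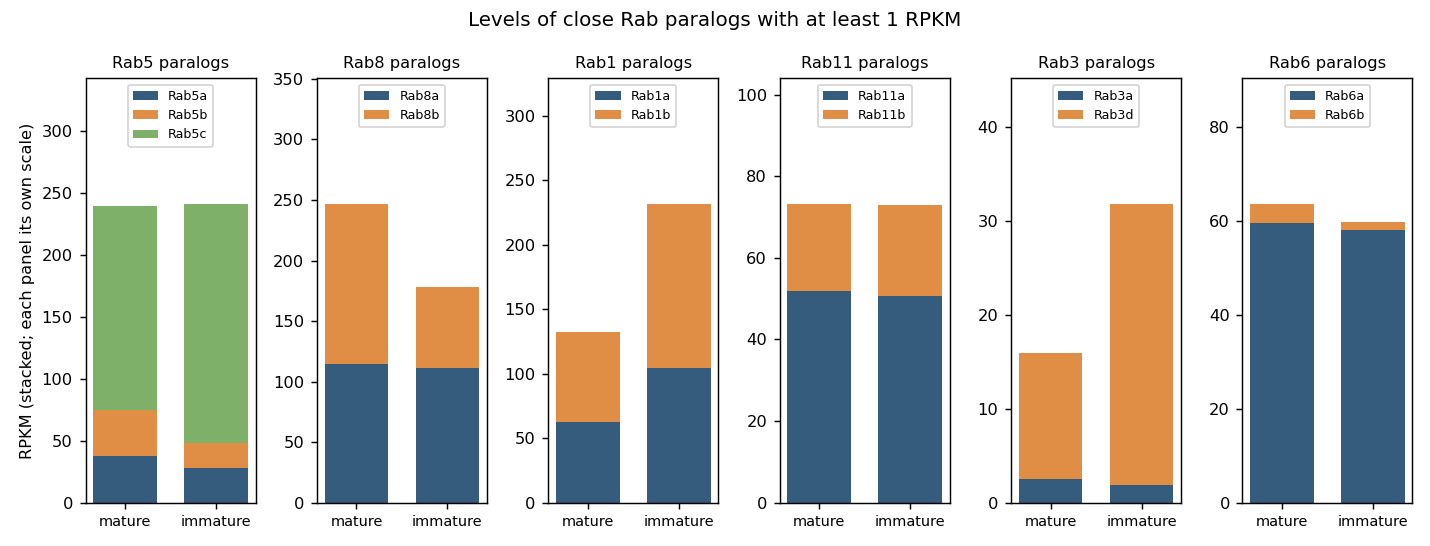
Stacked RPKM of close Rab paralogs with at least 1 RPKM in a library, mature left and immature right in each panel, with a scale of its own per panel from 0. The Rab5 sums are 239.6 RPKM in mature and 240.9 RPKM in immature cells with Rab5c the largest part in both, and the Rab8 panel shows more Rab8b than Rab8a in mature and less in immature cells.

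Close paralogs differed unequally. The Rab8 pair summed to 247 RPKM in mature and 178 RPKM in immature cells, and Rab8b made up 53.7% of it in mature and 37.5% in immature cells. Among Rab11a, Rab11b and Rab25 the share of Rab11a was 70.9% in mature and 69.5% in immature cells, and in the Rab1 pair the share of Rab1b was 52.5% in mature and 54.9% in immature cells. Only uniquely placed reads were counted, and the strand setting is not given in the sources used here, so reads shared with near-identical copies or with antisense genes cannot be apportioned.

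The proteins that switch and read the Rab proteins were described from lists of GEFs, GAPs, effectors and the genes of Rab lipid attachment and extraction. Of 132 listed genes, 129 had reads and 109 were compared. Of those compared, 9 stood 2-fold or more above the immature level (8.26%, beside 9.05% of all genes) and 2 were lower (1.83%, beside 11.3% of all genes). Their median log2 fold was 0.27, beside 0.03 over all genes, and 0.14 once the trend with gene length was removed.

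Among GAPs, 3 of 35 were higher (8.57%, beside 9.05% of all genes) and 0 lower, beside 11.3% of all genes. Rabgap1l, a TBC-domain GAP, had 2008 reads (39.2 RPKM) in mature and 273 reads (5.69 RPKM) in immature cells, 6.89-fold higher (6.07 to 7.85). Tbc1d4, an Akt substrate that in mouse adipocytes acts on Rab10 to hold back the glucose transporter, had 2301 reads (42.9 RPKM) in mature and 489 reads (9.74 RPKM) in immature cells, 4.41-fold higher (4.0 to 4.87). Tbc1d12, of lower abundance, was at 3.18 RPKM in mature and 0.565 RPKM in immature cells, 5.62-fold higher (3.39 to 9.84). Tbc1d2, with 28 reads in mature and 81 in immature cells, was 3.09-fold lower (1.99 to 4.93) in RPKM. Tbc1d16, with 45 reads in mature and 123 in immature cells, was 2.92-fold lower (2.06 to 4.2). Both were named after their values were seen and lay within 2-fold after the pseudocount.

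Among GEFs, 2 of 28 were higher and 2 lower (7.14% each, beside 9.05% and 11.3% of all genes). Denn2b (listed as St5, and known as an exchange factor of Rab13 in human cells) had 198 reads (5.76 RPKM) in mature and 9 reads (0.280 RPKM) in immature cells, 20.6-fold higher (10.64 to 45.7). Ric1, part of the exchange factor of Rab6, was at 36.1 RPKM in mature and 12.4 RPKM in immature cells, 2.9-fold higher (2.64 to 3.19). Rgp1, the other part, had a ratio of 1.23 (1.08 to 1.4) and was named after its values were seen. Rab3il1, an exchange factor of Rab8 related to Rabin8, had 15 reads (0.801 RPKM) in mature and 282 reads (16.1 RPKM) in immature cells, 20.1-fold lower (12.0 to 36.3). Dennd2d, a DENN-domain protein, was at 1.73 RPKM in mature and 7.01 RPKM in immature cells, 4.05-fold lower (2.67 to 6.32). The GEF of Rab3 and Rab27, Madd, had a ratio of 0.981 (0.847 to 1.14), and Rabgef1, a GEF of Rab5, 1.43 (1.17 to 1.74). Dennd6b, named after its values were seen, had 84 reads in mature and 23 in immature cells, 3.42-fold higher in RPKM but within 2-fold after the pseudocount.

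Among effectors, 4 of 38 were higher and 0 lower. Rab11fip3, which binds Rab11, was at 5.73 RPKM in mature and 1.5 RPKM in immature cells, 3.81-fold higher (2.84 to 5.19). Micall1, which joins Rab8 and Rab35 to recycling tubules, was at 31.8 RPKM in mature and 12.4 RPKM in immature cells, 2.57-fold higher (2.34 to 2.82). The kinase Lrrk1, which phosphorylates Rab7, was 2.37-fold higher (2.16 to 2.59), and Plekhm2, which links lysosomes to kinesin, 2.11-fold higher (1.92 to 2.31). Rab11fip4, with 18 reads in mature and 54 in immature cells, was 3.2-fold lower (1.85 to 5.8) in RPKM, and Rph3a, with 11 reads in mature and 32 in immature cells, 3.11-fold lower (1.53 to 6.83). These were also named after their values were seen and lay within 2-fold after the pseudocount.

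The Rab5 effectors Eea1 and Rabep1 had ratios of 1.04 (0.961 to 1.11) and 1.21 (1.08 to 1.35), and Rilp, the Rab7 effector, was scarce at 27 reads in mature and 16 in immature cells, a ratio of 1.58 (0.822 to 3.14). The Rab27a effector Unc13d, of granule priming, was at 22.5 RPKM in mature and 15.1 RPKM in immature cells, a ratio of 1.49 (1.32 to 1.68), the opposite side to Rab27a. Lrrk2, a kinase of Rab8a and Rab10, was at 7.63 RPKM in mature and 13.2 RPKM in immature cells, 1.73-fold lower (1.55 to 1.94).

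All 8 genes of lipid attachment and extraction lay within 2-fold after the pseudocount. Gdi2, a GDP dissociation inhibitor that keeps inactive Rab proteins soluble, was at 313 RPKM in mature and 354 RPKM in immature cells, a ratio of 0.885 (0.856 to 0.915). The escort protein gene Chm had a ratio of 1.78 (1.29 to 2.48), with reads over 20.6% of its length in the mature library. Its paralog Chml, named after its values were seen, had 82 reads in mature and 180 in immature cells, 2.34-fold lower (1.79 to 3.08) in RPKM.

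**Figure D4:**
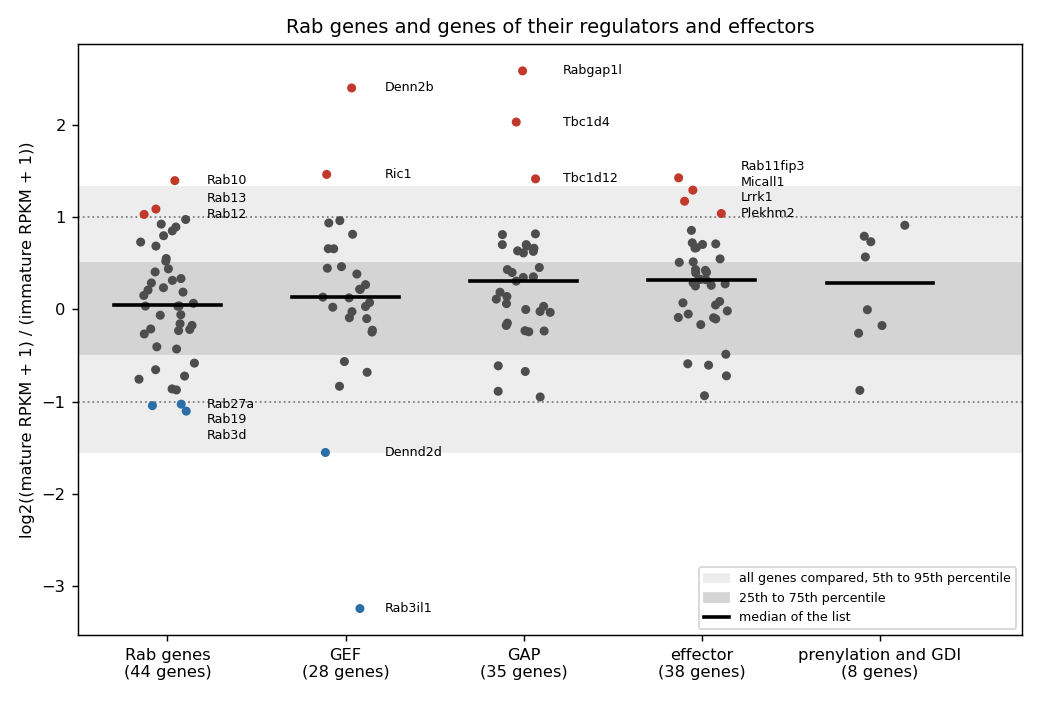
log2 fold with a pseudocount of 1 RPKM of the compared Rab genes and of each regulator class; each point is a gene, black bars are medians, and grey bands hold the middle 50% and 90% of all 11547 genes compared. Rabgap1l, Denn2b, Tbc1d4, Ric1, Rab11fip3 and Tbc1d12 lie above and Rab3il1 and Dennd2d below every Rab gene.

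The threshold decides how many Rab genes count as different, since most of the 6 lie near 2-fold. With a pseudocount of 5 RPKM, Rab10 alone remained at least 2-fold apart, at a log2 fold of 1.35. Of all 11547 genes, 469 higher and 686 lower remained. Just past the threshold were Rab3d, Rab13, Rab19, Rab12 and Rab27a, at log2 folds between 1.03 and 1.10 in size, and just short of it were Rab8b (0.98) and Rab6b (0.93).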

How the data were processed

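RNA was sequenced from 1 library of mature and 1 of immature dendritic cells, grouped by the stage in the labels. Per the file headers, the authors deposited each Entrez gene's count of uniquely placed reads (not normalised), its length, the covered part of that length in percent, and RPKM. The authors' RPKM values were recomputed from counts and lengths within a relative deviation of 1.07e-07. Per the submitters' processing notes the build was mm8. Neither aligner, counting tool nor strand setting is given in the sources used here.

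Symbols came from RefSeq on GRCm38.p6, for 16219 of 18090 IDs. Genes listed for 1 library alone got 0 reads in the other. Log2 folds used a pseudocount of 1 RPKM, over genes reaching 1 RPKM in either library. Ratios carry exact Clopper-Pearson 95% intervals from the share of a gene's reads in each library. Since reads carried no molecular identifiers and are not independent, intervals cover counting error only. Python 3.11.15, scipy 1.17.1, edgeR 4.0.16 (TMM factors) and DESeq2 1.42.0 (size factors) were used, the last 2 only for rescaling. The call rule and the intervals were tested on simulated reads with counting noise alone and known changes larger than 2-fold in some genes. Differences near 2-fold and error between cultures were not simulated.

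The Rab genes and all lists were chosen with earlier results of these data known. Every Rab gene may be named. Of the regulators, up to 4 of the highest and of the lowest per class at least 2-fold apart are named, with others named whatever their values, 1 of which is not reported here. The marker lists covered dendritic cells (5 of 10 compared genes at least 2-fold higher, 1 lower), neutrophils and precursors (10 of 10 lower), macrophages and monocytes (6 of 10 lower), mast cells and basophils (3 of 5 lower), T and NK cells (1 of 4 lower), B cells (0 of 1 apart), erythroid cells and platelets (1 of 4 lower) and proliferation (10 of 10 lower). Alternatives varied the pseudocount, the filter, the scaling, the correction for gene length, the covered length and the call rule.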

Additional observations from a re-analysis of the deposited data

How the results depend on the processing

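No paired analysis was possible because each state has 1 library, and for the same reason no library could be left out. The count of Rab genes at least 2-fold higher, 3, was 1 with a pseudocount of 5 RPKM and 1 when the counting interval had to lie wholly beyond 2-fold. The count of lower ones, 3, was 0 under both of these and 1 after rescaling to a common sum of RPKM, where Rab19 (-0.97) and Rab27a (-0.95) fell short. Over all genes, 1045 higher became 469 with a pseudocount of 5 RPKM and 835 by the counting interval. The 1310 lower of all genes became 686 and 1001 under these, and 1165 with the common sum. Over the other settings the Rab counts ran from 2 to 4. Rab6b counted as higher with a pseudocount of 0.1 RPKM (1.23) and Rab8b with the common sum (1.06). Rab9 did so with the gene length trend removed (1.03). Rab12 drops out with the filters at 5 RPKM and on covered length, and Rab19 was at -0.87 with the gene length trend removed. The Rab median log2 fold ran from 0.02 to 0.14. The medians of the ER and Golgi and of the secretory genes, 0.04 and 0.03, were slightly below 0 under TMM scaling, and the first also with the filter at 5 RPKM (-0.06) and the gene length trend removed (-0.04).

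Of the regulators, 9 higher became 5 with a pseudocount of 5 RPKM. The 2 lower became 7 with 0.1 RPKM, 1 with 5 RPKM and 6 with the gene length trend removed. In the same order, the 1310 lower of all genes became 1667, 686 and 1244. The regulator median ran from 0.14 to 0.35. Depth limits the 12 Rab genes under 1 RPKM: for all but Rab26, Rab30 and Rab39 the counting interval of the ratio included 1. The interval of Rab30 (8 reads in mature, 1 in immature cells) ran from 1.005 to 333. The error between cultures or animals is unknown for every value.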

Other observations

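The listed subunits of the tethering complexes that bind Rab5 and Rab7 lay within 2-fold, and all genes of this paragraph were named after their values were seen. Of the subunits of HOPS, which fuses late endosomes with lysosomes, Vps39 was at 31.0 RPKM in mature and 18.6 RPKM in immature cells, a ratio of 1.66 (1.51 to 1.84), and Vps41 at 44.7 RPKM in mature and 27.7 RPKM in immature cells, a ratio of 1.61 (1.47 to 1.78). The core subunits Vps16 and Vps18 had ratios of 0.937 (0.842 to 1.04) and 0.939 (0.853 to 1.03). Of the other core subunits, Vps11 had a ratio of 1.36 (1.23 to 1.51) and Vps33a 1.05 (0.942 to 1.18). Vps8, specific to the early endosome complex CORVET, had a ratio of 1.46 (1.3 to 1.65), and Tgfbrap1, also of CORVET, 1.27 (1.13 to 1.44). The exchange factor of Rab7 is formed by Mon1 and Ccz1 proteins: Mon1a, Mon1b and Ccz1 had ratios of 1.67 (1.3 to 2.16), 1.41 (1.21 to 1.65) and 1.17 (1.05 to 1.29), while Rab7 itself was 1.33-fold lower, at a log2 fold of -0.41 that was -0.10 with the gene length trend removed. For the exchange factor of Rab32 and Rab38, Hps4 had a ratio of 2.07 (1.68 to 2.56), within 2-fold after the pseudocount, and Hps1 1.06 (0.905 to 1.23), while Rab32 was 1.52-fold lower. Myo5a, the motor that Rab proteins recruit to carry vesicles along actin, was at 53.6 RPKM in mature and 29.2 RPKM in immature cells, a ratio of 1.84 (1.75 to 1.93).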
